A study of Mus musculus with 39 samples.

Results

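Cd44, Prom1, Cd24a and Lgr5, 4 genes that encode cell surface proteins reported in liver progenitor cells, were followed across 39 single cells of adult mouse liver. They were taken by symbol out of the 10061 symbols in the deposited table, and all 4 were present, Cd44 with 5 transcript rows, Prom1 with 4, and Cd24a and Lgr5 with 1 each. Rows of a symbol were summed. In GENCODE M21 on GRCm38, Cd44 spans chr2:102811141-102901665 and Prom1 chr5:43993620-44102032, both on the minus strand, and chromosome 10 holds Cd24a at chr10:43578284-43584265 on the plus strand and Lgr5 at chr10:115450311-115587780 on the minus strand. The cells were GFP-positive cells sorted from liver that carried a Krt19CreERT allele, which places an inducible Cre recombinase under the keratin gene Krt19, together with a Rosa26CAG-EGFP reporter, so the green cells are Krt19-expressing cells and their descendants. The study set out to characterise stem cells of the adult liver and the lineages below them. All 39 cells form 1 group in the labels, which name no animal, sort, plate or sequencing run and give no age beyond adult. Cells of such a group are not replicates, so values are given per cell and no test between cells was made.

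Bile duct cells, and the duct-like progenitors that appear in injured liver, carry several of these proteins, which has made them common handles for sorting. CD44 binds hyaluronan and osteopontin, and is also found on most leukocytes. Prominin-1, or CD133, is a membrane protein of apical protrusions in epithelia, and CD24 is a small glycoprotein held by a lipid anchor on epithelial and blood cells. LGR5 is a receptor for R-spondins, which strengthen Wnt signalling. It marks stem cells of the intestine and, in mouse liver, duct-derived cells after injury.

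Values are linear expression levels, called CPM here for the usual counts scaled to a common library size, turned back from the deposited log2 scale. A gene was called detected at 1 CPM and high at 100 CPM. Cells had 1866 to 5298 genes detected, with a median of 2985. From the repeated low values of each cell, 1 CPM stood for about 12.0 reads in the median cell (range 3.67 to 41.5), although in cells 38 and 39 few low values fitted whole reads and their depth is uncertain. Among 12 housekeeping genes, 6 had a 0 somewhere, and such a 0 occurred in 36 cells. A 0 is therefore given as listed at 0 and not as absence. CPM are not divided by transcript length, so levels are compared between cells and not between genes.

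To place the 4 genes, the cells were divided by cell type markers that did not include them. Clustering on 96 measured markers gave 4 clusters with a silhouette of 0.384. Of these, 22 cells were duct-like, with a median of 10 (range 6 to 13) of the 21 measured duct markers and of 2.5 (range 0 to 11) of the 28 hepatocyte markers at 100 CPM, and 6 were hepatocyte-like, with a median of 3 duct and 23 hepatocyte markers. Duct-like cell 31 had more hepatocyte than duct markers, 11 and 7, and cells 17 and 28 had equal numbers, 7 and 9 of each. A cluster of 7 cells was led by the matrix genes Dcn and Col1a2 with mesothelial genes among the leading 10, and is called Dcn-led. The remaining 4 were led by the neutrophil granule genes Elane and Mpo and are called Elane-led, although 1 of them, cell 33, had 0 granulocyte markers and 9 macrophage and Kupffer cell markers at 100 CPM. With average linkage on Spearman correlation the duct-like cluster had 19 cells, of which 17 were shared. Cells 9, 11, 12, 13 and 34 left it and cells 29 and 32 joined it. The hepatocyte-like cells also stood apart in 2 measures of the RNA. Rn45s, the precursor of ribosomal RNA, took 8.42% to 31.2% of the summed CPM in duct-like cells and 0.383% to 1.22% in hepatocyte-like cells. Of 14 immediate early genes, 4 to 12 were high in duct-like cells and 0 to 1 in hepatocyte-like cells. The part of these in the differences between the clusters was not tested.

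Cd24a and Cd44 were detected in more cells than Prom1, and Lgr5 in the fewest. At 1 CPM Cd24a was found in 27 of 39 cells (exact Clopper-Pearson 95% interval 52.4% to 83.0%), Cd44 in 25 (47.2% to 78.8%), Prom1 in 13 (19.1% to 50.2%) and Lgr5 in 5 (4.30% to 27.4%). At 100 CPM the counts were 17, 15, 9 and 0 cells in the same order. The order of Cd24a and Cd44 turned with the threshold. At 10 CPM Cd24a was in 18 cells and Cd44 in 20, and at 50 CPM they were in 17 and 18. With any value above the lowest they were in 31 and 37. Some of the latter values are under 1 read, such as 0.000508 reads of Cd44 in cell 9, so those 2 counts are not counts of cells with a read. The median symbol of the table had 1 CPM in 9 cells and 100 CPM in 2, and 97.0% of symbols reached 100 CPM in fewer cells than Cd24a, 96.1% in fewer than Cd44 and 89.4% in fewer than Prom1. All 4 genes were measured in the same 39 cells and each interval treats 1 gene alone, so the intervals are not compared between genes. They cover the choice of cells alone.

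**Figure D1:**
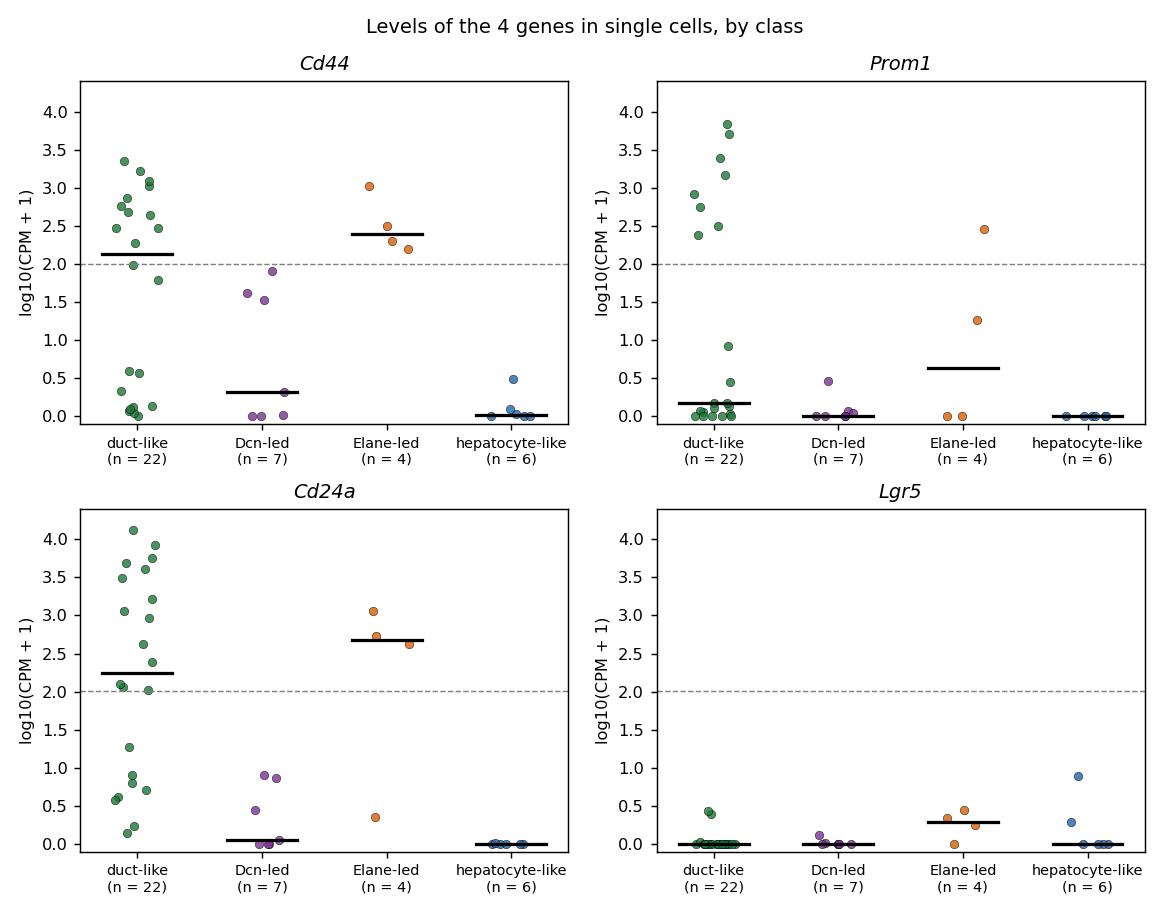
Level of each of the 4 genes, as log10(CPM + 1), in single cells of the 4 clusters, with 1 point per cell, a black bar at the median and a dashed line at 100 CPM. Duct-like cells spread over the whole range for Cd44, Prom1 and Cd24a, all 6 hepatocyte-like cells lie near 0 for those genes, and Lgr5 stays under 10 CPM in every cell.

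At both thresholds Cd24a was found in more duct-like cells than the other 3 genes. It was detected in 20 of the 22 and high in 14, with a lowest value of 0.416 CPM in cell 26, a median of 186 CPM and a highest value of 13385 CPM in cell 24. Cells 11, 16, 13 and 12 followed with 8510, 5743, 4872 and 4037 CPM. Cell 24 also had the largest summed CPM of the 39 cells, 3128332. Values were not rescaled, so its place in this order depends on that total. In the Dcn-led cells the highest value was 7.04 CPM and the median 0.117 CPM. The Elane-led cells had 1142, 532, 423 and 1.26 CPM, the last in cell 33, the cell with Kupffer markers. In the hepatocyte-like cells Cd24a was listed at 0 in 5 of 6 and was 0.0368 CPM in the other. The Elane-led values thus fell inside the duct-like range, the Dcn-led cells overlapped its low end, and every duct-like cell was above every hepatocyte-like cell. Mouse Cd24a has processed copies elsewhere in the genome, and how reads were shared with them is not known here.

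Cd44 was high in 11 of the 22 duct-like cells and in all 4 Elane-led cells. The duct-like values ran from close to 0 in cell 9 to 2216 CPM in cell 28, with a median of 142 CPM, and 16 of the cells were at 1 CPM or more. Of the 11 high cells, cells 28, 30 and 31 had 9, 9 and 11 of the 28 hepatocyte markers at 100 CPM and the other 8 had 1 to 3. The Elane-led cells had 156, 198, 314 and 1068 CPM. Dcn-led cells reached 80.5 CPM in cell 8, with 40.2 and 32.5 CPM in cells 37 and 10 and a median of 1.12 CPM. The hepatocyte-like cells reached 2.13 CPM at most, in cell 38. The Elane-led values all fell inside the duct-like range.

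Prom1 was either high or under 10 CPM in each duct-like cell. It stood at 240 to 6819 CPM in 8 of the 22 cells and under 1 CPM in 12. Cells 20 and 28 had 7.37 and 1.83 CPM, or about 109 and 16.0 reads. In order of level, the 8 cells were cell 24 with 6819 CPM, cell 12 with 5047, cell 11 with 2468, cell 18 with 1450, cell 9 with 829, cell 23 with 566, cell 13 with 317 and cell 19 with 240 CPM. Cells 24 and 12 held 66.9% of the Prom1 summed over the duct-like cells. The place of cell 24 here, too, depends on its summed CPM of 3128332, the largest of all cells. Outside that cluster it was high in 1 cell, Elane-led cell 32, with 288 CPM, and it was listed at 0 in all 6 hepatocyte-like cells. With average linkage on Spearman correlation, 5 of the 19 duct-like cells were high in Prom1, since cells 9, 11, 12 and 13 left the cluster and cell 32 joined it.

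Lgr5 stayed low. The 5 cells with 1 CPM or more were duct-like cells 18 and 17 with 1.70 and 1.47 CPM, Elane-led cells 33 and 36 with 1.82 and 1.18 CPM, and hepatocyte-like cell 3 with 6.85 CPM. By the worth of 1 read in each cell these are about 22.5, 10.0, 14.5, 21.5 and 28.2 reads. Some cells under 1 CPM had as many reads, since 1 CPM stood for more reads in them. Elane-led cell 32 had 0.793 CPM or 19.3 reads, Dcn-led cell 6 had 0.327 CPM or 13.6 reads, and hepatocyte-like cell 38, whose depth is uncertain, had 0.970 CPM or 25.5 reads. The count of 5 cells at 1 CPM is therefore not a count of cells with reads. Lgr5 was listed at 0 in 18 of the 22 duct-like cells and in 27 of all 39, and the exact interval for 0 of 39 cells at 100 CPM allows a share of up to 9.03%. In the duct-like cells alone, 0 of 22 allows up to 15.4%. Cell 3 held 72.6 CPM of Glul, the glutamine synthetase gene of hepatocytes around the central vein, within the hepatocyte-like range of listed at 0 to 463 CPM. The labels name no molecular identifiers, so a handful of reads can stem from 1 molecule.

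Averaged over cells, Prom1 was 807 CPM in duct-like cells and 18.1 CPM in the 17 others, a ratio of 44.6. It was 28.7 without cell 24 and 660 without cell 32. Cd24a averaged 2021 CPM in duct-like cells and 124 CPM in the others, a ratio of 16.3, and 33.3 without cell 29. Cd44 averaged 423 CPM in duct-like cells and 111 CPM in the others, a ratio of 3.80, which became 4.29 without cell 32 and 8.20 without cell 33. By a rule of 4-fold or more, 2 of the 3 genes with an average of at least 10 CPM in either set were higher in duct-like cells, and Lgr5 was below that floor. That rule was met by 27.9% of the 7965 symbols it could be applied to, and 26.0% were at least 4-fold lower, shares that are large on both sides. Each set of cells counts as 1 sample, and no test was made.

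Prom1 fell inside Cd24a in the duct-like cells, while Cd44 overlapped both in part. All 8 cells high in Prom1 were also high in Cd24a, while 6 cells were high in Cd24a without Prom1. Of the 11 cells high in Cd44, 5 were high in Prom1 and 8 in Cd24a. All 3 genes were high together in cells 11, 12, 18, 19 and 23. Prom1 and Cd24a without Cd44 were high in cells 9, 13 and 24, Cd44 and Cd24a without Prom1 in cells 28, 30 and 34, Cd24a alone in cells 14, 15 and 16, and Cd44 alone in cells 20, 25 and 31. Cells 17, 21, 22, 26 and 27 were high in none of the 3. Over the 22 cells the Spearman correlation of log2(CPM + 1) was 0.65 between Prom1 and Cd24a (Pearson 0.65), 0.08 between Cd44 and Prom1 (Pearson 0.22) and 0.03 between Cd44 and Cd24a (Pearson 0.04). These are descriptions over cells that share a source, and depth and scaling per cell enter both values of a pair.

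**Figure D2:**
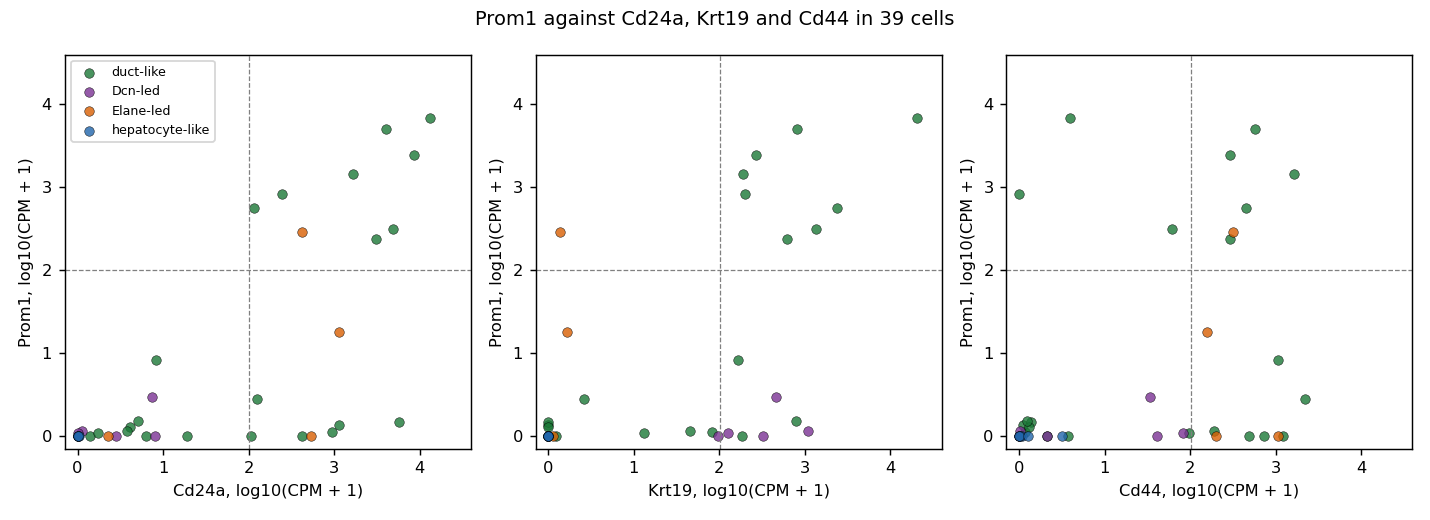
Prom1 on the vertical axis against Cd24a, Krt19 and Cd44 on the horizontal axes, as log10(CPM + 1), with 1 point per cell coloured by cluster and dashed lines at 100 CPM. The 8 duct-like cells high in Prom1 are also high in Cd24a and in Krt19, while 5 of them lie above 100 CPM of Cd44.

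The same 8 cells were all high in Krt19, the gene whose promoter drives the Cre of the lineage label. Krt19 ranged from 188 to 20676 CPM in them, and of the 11 duct-like cells high in Krt19 the 3 without high Prom1 were cells 20, 21 and 22. Of the 11 cells high in Cd44, 6 were high in Krt19, and of the 14 high in Cd24a, 8 were. Outside the cluster Krt19 and Prom1 were not high together. Dcn-led cells 5, 7, 8 and 10 had 127 to 1090 CPM of Krt19 and at most 1.95 CPM of Prom1, and Elane-led cell 32, with 288 CPM of Prom1, had 0.370 CPM of Krt19. Krt19 was among the markers that formed the clusters, so which cells are counted here depends on it in part. With average linkage on Spearman correlation, cells 9, 11, 12 and 13 left the duct-like cluster, and cell 32, without high Krt19, joined it. Over all 39 cells, whatever their cluster, 8 of the 9 cells high in Prom1 were high in Krt19, and 7 cells were high in Krt19 without Prom1.

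Sox9 and Epcam were high together with Prom1 in fewer cells. Sox9, a transcription factor of duct cells, was high in 8 duct-like cells, of which 1, cell 24, was high in Prom1. It was high in 4 of the 11 Cd44 cells and 4 of the 14 Cd24a cells. Epcam, an adhesion protein of epithelia, was high in 6 cells, of which 2 were high in Prom1, 3 in Cd44 and 4 in Cd24a. Spp1, encoding osteopontin, was high in all 22 cells and so met every high Cd44 cell, with 4299 to 83095 CPM in those 11.

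Alb, encoding albumin of hepatocytes, was high in 13 duct-like cells, and 2 of these were high in Prom1, cell 23 with 2190 CPM and cell 18 with 564 CPM. In the other 6 Prom1 cells Alb was 4.69 CPM or less. The 8 Prom1 cells had 0 to 2 of the 28 hepatocyte markers at 100 CPM, where the 22 duct-like cells as a whole had 0 to 11. For Cd24a the overlap with Alb was 7 of 14 cells, and for Cd44 it was 5 of 11. Hnf4a, a transcription factor of hepatocytes, was high in 4 duct-like cells, all 4 of them high in Cd24a and 2 in Prom1. Rn45s took 16.1% to 31.2% of the summed CPM in the 8 Prom1 cells and 8.42% to 31.2% in all 22, and the number of detected genes was 2445 to 3289 in the 8 and 1866 to 3816 in the 22. The part of these measures in the overlaps was not tested.

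**Figure D3:**
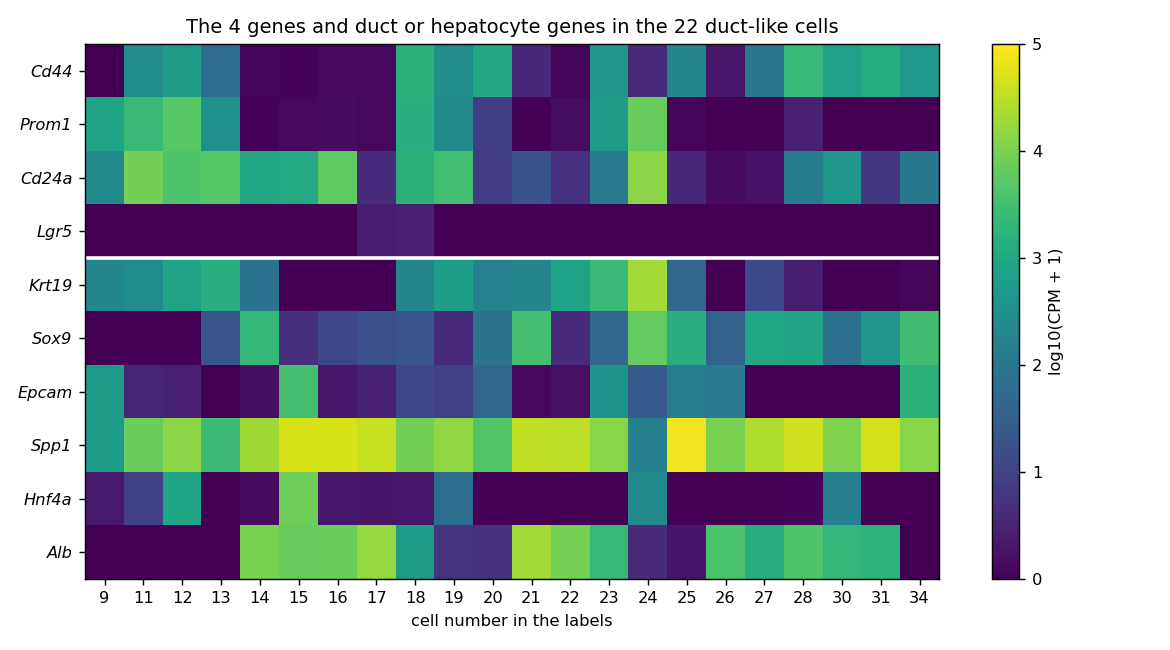
Heat map of log10(CPM + 1) in the 22 duct-like cells, in the order of their cell numbers, for the 4 genes above the white line and for Krt19, Sox9, Epcam, Spp1, Hnf4a and Alb below it. Prom1 is high in cells 9, 11 to 13, 18, 19, 23 and 24, where Krt19 is high as well, while Alb is highest in cells 14 to 17, 21 and 22, all low in Prom1.

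Some neighbouring cell numbers had the same pattern. Cells 11, 12 and 13 were all high in Prom1 and Cd24a, and cells 14, 15 and 16 were all high in Cd24a alone. The labels do not say whether neighbouring numbers share an animal, a sort or a plate, so such a source and the biology of the cells cannot be told apart.

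The Cd44 rows separated transcripts with and without variable exons. CD44 transcripts can carry a stretch of variable exons between constant ones, usually called v1 to v10, and epithelia are known for using them while leukocytes mostly make the standard form. By the RefSeq accessions, matched to GENCODE M21 on GRCm38, the table held the standard form NM_001039151 with 0 variable exons, NM_001177787 with 2 (v9 and v10), NM_001177786 with 3 (v8 to v10), NM_001039150 with 5 (v6 to v10) and NM_001177785 with 7 (v4 to v10). Other transcripts of the gene were not analysed here. The gene is read from the minus strand. The stretches that follow show the junction that defines the standard form and the v8 exon (chr2:102834234-102834335), v9 exon (chr2:102832483-102832572) and v10 exon (chr2:102831330-102831536) that the variable forms of cells 13, 20 and 28 rest on. The exon itself is in capitals, with 20 bases of each neighbouring exon of its transcript in lower case. The length of each of these exons is a multiple of 3.
Standard form: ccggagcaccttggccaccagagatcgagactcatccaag
v8 exon: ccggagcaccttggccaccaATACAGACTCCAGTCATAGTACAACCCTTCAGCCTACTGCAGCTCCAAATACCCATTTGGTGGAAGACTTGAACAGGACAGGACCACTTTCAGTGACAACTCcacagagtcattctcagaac
v9 exon: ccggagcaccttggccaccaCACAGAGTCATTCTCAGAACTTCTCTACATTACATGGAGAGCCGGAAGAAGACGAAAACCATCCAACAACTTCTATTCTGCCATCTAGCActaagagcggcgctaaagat
v10 exon: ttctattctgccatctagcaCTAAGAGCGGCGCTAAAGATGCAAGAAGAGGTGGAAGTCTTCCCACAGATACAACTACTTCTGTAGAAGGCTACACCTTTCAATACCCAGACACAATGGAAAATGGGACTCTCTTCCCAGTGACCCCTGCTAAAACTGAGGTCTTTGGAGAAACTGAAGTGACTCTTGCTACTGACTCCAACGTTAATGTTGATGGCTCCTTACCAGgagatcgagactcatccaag

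In most cells the standard form led, and the exceptions were among the duct-like cells, which were also most of the cells compared. In the 20 cells with at least 10 CPM of Cd44, the share of each form was computed from CPM divided by transcript length. Of these 20 cells, 13 were duct-like. The standard form made up over 50% in 16 of the 20 cells, 9 of them duct-like. It was at 0 to 5.06% in the remaining 4, which were duct-like cells 13, 19, 20 and 28. Those 4 differed from each other. In cell 28, with 2216 CPM of Cd44, NM_001177787 took 2215 CPM. In cell 19, all 294 CPM fell on NM_001177785, the form with 7 variable exons. In cell 20 the v8 to v10 form NM_001177786 held 626 CPM, or 64.3% by length, and NM_001177787 held 222 CPM. In cell 13, with 61.0 CPM in all, NM_001177787 held 46.4 CPM and NM_001177786 held 13.1 CPM. No molecular identifiers are named, so the number of molecules behind the forms of each cell is not known.

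Among the other duct-like cells, forms with variable exons reached 40.3% in cell 18 and 25.9% in cell 34. In the 3 Dcn-led cells they were 6.81% to 14.8%, and in the 4 Elane-led cells 4.53% to 11.7%, so the standard form was at 85.2% or more in those 7. The 4 Elane-led cells are the ones with leukocyte genes, with 4 to 6 of the 6 measured leukocyte markers at 100 CPM in each. NM_001177785, NM_001177786 and NM_001177787 end at or close to the stop codon in their models (1981, 1533 and 1412 bases with 1971, 1494 and 1392 coding), whereas NM_001039151 has 2848 bases with 1095 coding. By these models, reads from the untranslated end can thus be given to NM_001039151 or NM_001039150 alone among these rows. Whether the submitters' processing used the same models is not known here, and the effect on the shares was not tested.

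**Figure D4:**
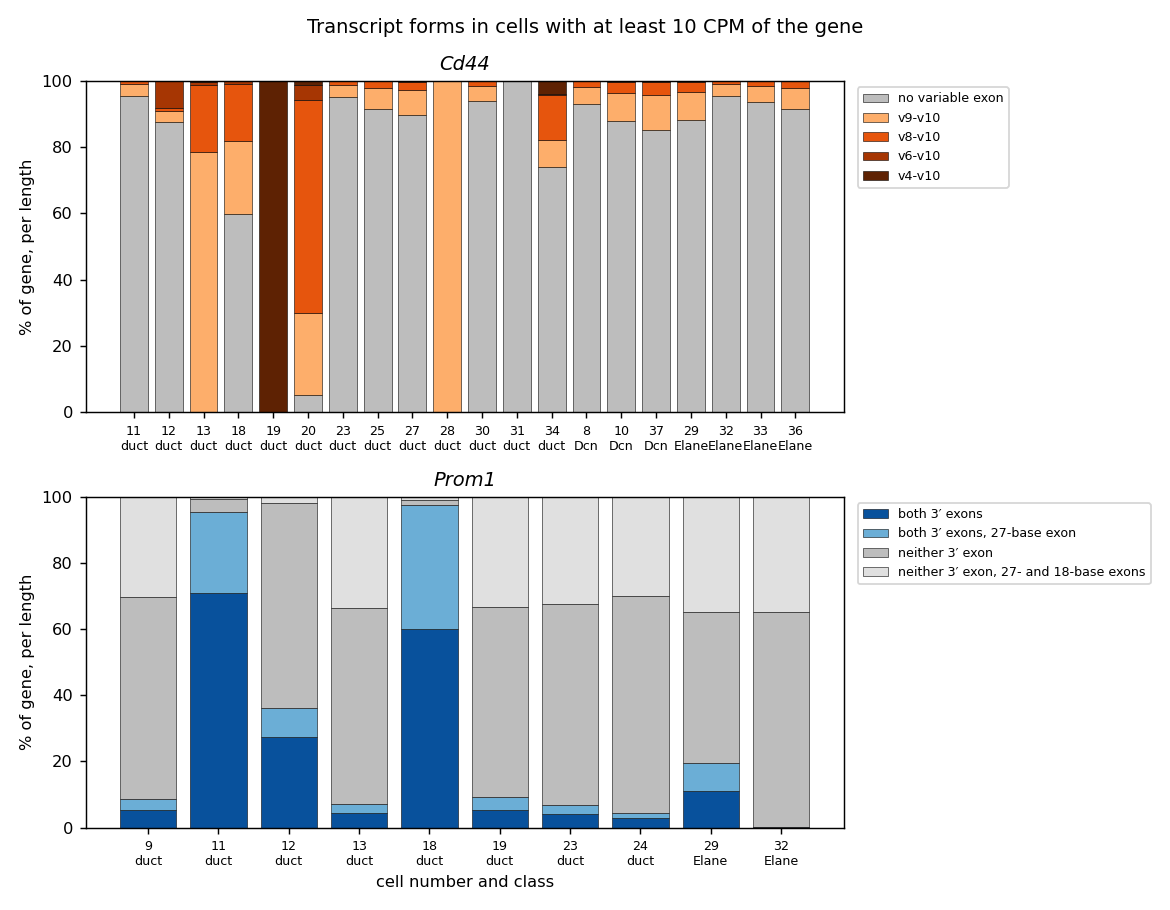
Share of each transcript row of Cd44 and Prom1, in % of the gene's CPM per transcript length, in cells with at least 10 CPM of the gene, with the cell number and cluster on the horizontal axis. For Cd44 the standard form (grey) leads in 16 of 20 cells and forms with variable exons (orange to brown) lead in duct-like cells 13, 19, 20 and 28, while for Prom1 the forms with both 3′ exons (blue) lead in cells 11 and 18.

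Prom1 rows likewise differed in small exons. NM_008935 and NM_001163577 contain exons of 24 and 69 bases near the 3′ end of the coding region, which NM_001163584 and NM_001163585 skip. NM_001163577 and NM_001163585 also contain an exon of 27 bases, and NM_001163585 one of 18 bases. This gene, too, is read from the minus strand. The first stretch printed here holds both 3′ exons (chr5:44000777-44001293 on GRCm38, with an intron between them) in capitals with 20 bases of the neighbouring exons in lower case, and the second the junction formed without them.
With both exons: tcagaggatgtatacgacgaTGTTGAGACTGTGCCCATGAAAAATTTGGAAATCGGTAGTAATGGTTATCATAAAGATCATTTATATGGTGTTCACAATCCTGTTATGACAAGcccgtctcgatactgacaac
Without them: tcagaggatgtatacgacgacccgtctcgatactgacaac

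The forms with both 3′ exons were the main ones in 2 of the 10 cells that had at least 10 CPM of Prom1. They made up 97.5% by length in cell 18 and 95.4% in cell 11. Cell 12 held both kinds, with 36.1% for the forms with the exons and 63.9% for those without. In the other 5 duct-like cells the forms with the exons were at 4.50% to 9.14%, in cells 24, 23, 13, 9 and 19 from lowest to highest. In the Elane-led cells they were 0.0936% in cell 32 and 19.5% in cell 29, where Prom1 was 17.3 CPM in all. Those 5 duct-like cells split over the 4 rows in nearly the same way. The row with neither the 3′ exons nor the other small exons held 57.6% to 65.6% by length in them. Of the 8 duct-like cells, cells 11, 12 and 18 thus differed from the rest. How reads were shared among these rows is not known here, and its effect on the shares was not tested.

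The symbols whose levels ran most like those of a member over the 39 cells were ranked by Spearman correlation among 4811 symbols detected in at least 10 cells. For Prom1 they were Sfn at 0.79 (14-3-3 sigma, a protein of epithelial cells), Cd24a at 0.71, Krt19 at 0.69, Ctse at 0.68 (the protease cathepsin E) and Kcnq1 at 0.66 (a potassium channel). For Cd24a they were Scd2 at 0.71 (a fatty acid desaturase), Prom1, Pamr1 at 0.68, Sfn at 0.61 and 5330417C22Rik at 0.61. For Cd44 they were Rcsd1 at 0.63, Zfp609 at 0.63, Snx6 at 0.63 (a sorting nexin), Cd14 at 0.60 (a receptor for bacterial lipopolysaccharide) and Lamp2 at 0.60 (a lysosomal membrane protein). Pearson correlations of the same pairs were 0.44 to 0.77. These pool the 4 clusters, so differences between clusters enter them.

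Within the 22 duct-like cells the leading symbols were partly others. Krt19 and Sfn stayed among the 5 closest to Prom1, at 0.75 and 0.72, behind Cox7a2l, Phyh and Bag1 at 0.78, 0.77 and 0.77. For Cd44, Rcsd1 and Zfp609 stayed, at 0.74 and 0.71, and the leading symbol was Ctsl, the lysosomal protease cathepsin L, at 0.78, with Cxcl16, a membrane-bound chemokine, at 0.72. For Cd24a the 5 closest were Slc9a3r1 at 0.70 (a scaffold protein of the apical membrane), Pdxdc1, Hnf4a at 0.68, Atp1b1 and Abr. Pearson correlations ran from 0.41 for Cd24a and Slc9a3r1 to 0.81 for Cd44 and Ctsl. Rcsd1 was high in 0 duct-like cells and Slc9a3r1 had a duct-like median of 0.235 CPM, so values under 1 CPM enter these ranks. Lgr5 was detected in too few cells to rank.

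Other genes reported in liver progenitors were divided over the clusters. Of 16 listed, 12 were measured, and 11 reached an average of 10 CPM in either set of cells. By the 4-fold rule 5 of these were higher in duct-like cells, 5 lower and 1 neither, where 27.9% of all symbols were higher and 26.0% lower by the same rule. Epcam was high in 6 duct-like cells and in none of the other 17, Icam1, an adhesion molecule, in 5 and 1, Itga6, the integrin alpha 6 chain, in 3 and 1, and the membrane protease gene St14 in 3 and 0. The reverse held for Cd34, a surface protein of blood progenitors and mesenchymal cells, and for the retinaldehyde dehydrogenase gene Aldh1a2, each high in 0 duct-like and 4 Dcn-led cells. Kit, the stem cell factor receptor, was high in 0 duct-like and 3 Elane-led cells. Foxl1 reached 10.1 CPM at most. Epcam and Sox9 were also markers used for clustering, so their counts describe the clusters.

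Several receptors and regulators around LGR5 were high in a few duct-like cells. Lgr4, a related R-spondin receptor, was detected in 17 cells and high in 4, all duct-like, with up to 725 CPM. Znrf3, a ubiquitin ligase that removes Wnt receptors and is held back by R-spondin, was detected in 30 cells and high in 5 duct-like cells and 1 Elane-led cell, and its relative Rnf43 in 3 duct-like cells. Fzd4, a Frizzled receptor for Wnt proteins, was detected in 4 cells, all duct-like and all high. The ligand gene Rspo1 was high in 2 Dcn-led cells, and it was also a clustering marker, so its count describes the clusters. Of 25 listed genes 16 were measured, and of the 14 above the floor 9 were at least 4-fold higher in duct-like cells, 1 lower and 4 neither, beside the 27.9% higher and 26.0% lower of all symbols. The median ratio was 11.1, beside 1.19 over all symbols the rule could be applied to. Each of the 9 was high in only 1 to 5 duct-like cells, and their ratios rest on those cells. The medians of the 9 over the duct-like cells were 0 to 3.00 CPM. The medians of Lgr4, Znrf3, Lrp6 and Tcf7l1 were higher in hepatocyte-like than in duct-like cells, and those of the rest were not. No cell was left out in turn for these genes.

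Most partners of CD44 differed by less than 4-fold. Of 18 listed genes 12 were measured, and 1 was higher, 2 were lower and 9 were neither, beside 27.9% higher and 26.0% lower over all symbols. Their median ratio was 1.31, close to the 1.19 over all symbols. The higher one was Spp1, which was also a clustering marker. Ezr, which links CD44 to the actin skeleton, was high in 10 duct-like, 6 Dcn-led and 1 Elane-led cell, and its relative Msn in 5, 6 and 3. The sheddases Adam10 and Mmp14, enzymes that can cut CD44 from the surface, were high in 6 and 5 duct-like cells and in 5 and 1 of the others. Hmmr, a hyaluronan receptor that rises in dividing cells, was high in 0 duct-like cells and in 3 others. Esrp2, a splicing factor that favours variable exons of CD44, was high in 1 cell, hepatocyte-like cell 3, and was detected in 4 cells. For the apical membrane list 2 of 5 genes above the floor were higher and 1 lower, and for the CD24 and lipid anchor list 2 of 5 were higher and 1 lower, too few genes to set apart from the 27.9% and 26.0% of all symbols. Among the higher genes of the apical membrane list, Muc1 was also a clustering marker.

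**Figure D5:**
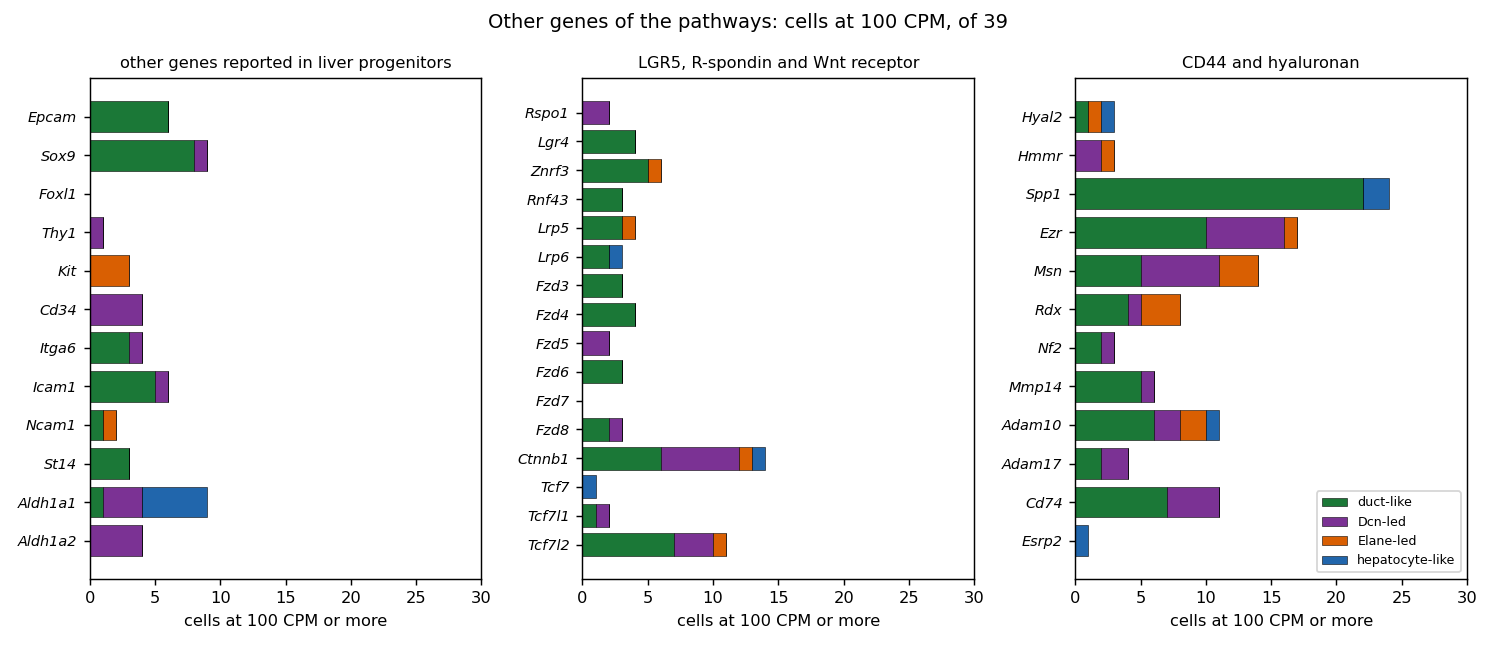
Number of cells at 100 CPM or more, coloured by cluster, for each measured gene of the progenitor list, the LGR5 and Wnt receptor list and the CD44 list. Epcam, Lgr4, Fzd4 and St14 are high in duct-like cells alone, Cd34 and Aldh1a2 in Dcn-led cells and Kit in Elane-led cells.

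Genes of dividing cells were divided. Of 11 measured genes of a proliferation list, 0 were at least 4-fold higher in duct-like cells, 6 were lower and 5 were neither, beside 27.9% higher and 26.0% lower over all symbols. Mki67 and Top2a, genes of dividing cells, reached 100 CPM in 0 of the 22 duct-like cells, although Mki67 was at 74.1 CPM in cell 30. Cdk1 and Aurka, of the same list, were each high in 1 duct-like cell, of 4 and 2 cells in all. Their highest values were 442 CPM in duct-like cell 28 and 1160 CPM in duct-like cell 23. Birc5, Mcm2, Mcm5, Rrm2 and Tk1 were high in 0 duct-like cells. Pcna, a sliding clamp of DNA replication, was high in 6 duct-like and 5 other cells, with the highest value of 2641 CPM in duct-like cell 25. Tyms, encoding thymidylate synthase, was high in 5 duct-like and 5 other cells, with the highest value of 6896 CPM in duct-like cell 17. Outside that cluster, Mki67 was high in 6 of 17 cells. Of these, 3 were Elane-led and high in Cd44, out of 4 such Cd44 cells, and 3 were Dcn-led without high Cd44. The immediate early list, whose genes respond within minutes to stress and dissociation, had 4 to 12 of 14 members high in the 11 Cd44 cells, the same range as in all 22 duct-like cells.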

How the data were processed

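Single GFP-positive liver cells were picked into lysis buffer and sequenced, per the labels' protocols. The submitters' processing notes name Bowtie 0.12.9, the mouse build mm9, eXpress 1.5.1 and edgeR, the last without a version, and give neither order nor settings. The authors deposited log2 values for 13568 RefSeq transcripts. Every cell had the same lowest value, -2.58, or 0.167 as a linear number. Values were raised as powers of 2, this lowest one was subtracted, and the result is called CPM. The base, the unit and the reading of the lowest value as 0 were inferred from the values, whereas the planned analysis had assumed CPM. Summed CPM ran from 351255 to 3128332 per cell, so the cells do not share 1 total. No rescaling was applied.

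The most often repeated low value of a cell was taken as 1 read. In cells 1 to 37, 32.7% to 55.5% of values up to 20 reads were whole to within 2% of a read. In cells 38 and 39 it was 14.3% and 21.5%. Intervals were exact Clopper-Pearson at 95%. They cover the choice of cells alone, and not errors of counting reads or molecules within a cell. No molecular identifiers are named. No count model was fitted, no doublet caller was run and no cell was removed. No 2 of the 741 pairs of cells were identical.

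Clusters came from Ward linkage on log2(CPM + 1) of 96 measured of 121 listed markers, without the 4 genes, with 2 to 6 clusters of at least 3 cells and the highest silhouette. Duct-like and hepatocyte-like were named from those markers. Of the others, 1 mixed mesothelial and fibroblast leaders and 1 mixed cells, so they are called by a leading gene. The pooled-mean rule, the clustering and the read step were tried on simulated data. There, markers were raised strongly in the cells to be found, and the values for the read step were all whole reads. These trials check the code and do not measure its errors on the present data. Genes were named as members, as list members or as the 5 closest by Spearman correlation over the 39 cells. The ranking within duct-like cells was added after values were seen. The members and lists were chosen with earlier results of these data known. Transcript sequences and exons came from GENCODE M21 on GRCm38, matched by RefSeq accession. That build is not mm9. Its coordinates serve the printed sequences and gene positions, and no value was placed by them. Its transcript lengths did enter the shares by length of the Cd44 and Prom1 forms. Those lengths were not compared with the ones used in the submitters' processing. Python 3.11.15, numpy 2.4.6, pandas 2.3.3, scipy 1.17.1, scikit-learn 1.9.0 and matplotlib 3.10.9 were used.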

Additional observations from a re-analysis of the deposited data

How the results depend on the processing

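Of 67 alternative values of the main counts, 61 stayed within the exact interval of the main share, or within 1.5 times the main count of symbols. Some of the 61 could not move. Taking the highest row in place of the sum changes nothing for Cd24a and Lgr5, with 1 row each. No other choice of cells or higher threshold can change the 0 cells with Lgr5 at 100 CPM. The intervals were also wide, at 17.2% to 59.3% for the 8 of 22 duct-like cells high in Prom1. The count of 61 is therefore no measure of stability. With any value above the lowest counted as detected, some of them under 1 read, Cd44 was found in 37 cells, Prom1 in 22 and Lgr5 in 12. At 10 CPM Cd24a was found in 18 cells and Lgr5 in 0. With a floor of 100 CPM, 1091 of 3179 symbols were at least 4-fold higher in duct-like cells, in place of 2220 of 7965. Each of these changes the rule for counting itself. With average linkage on Spearman correlation, 10, 5 and 11 of 19 duct-like cells were high in Cd44, Prom1 and Cd24a, in place of 11, 8 and 14 of 22. With pseudocounts of 0.1 and 10, and after rescaling without Rn45s, Lars2 and Rorb, the same 22 cells were duct-like. Leaving out each cell in turn, chosen after seeing the data, gave ratios of duct-like over other cells of 3.03 to 8.20 for Cd44, 28.7 to 660 for Prom1 and 11.9 to 33.3 for Cd24a. No paired analysis was possible because the labels give 1 group.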
